A study of Mus musculus with 4 samples.

Results

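Natural Th1 (nTh1) thymocytes were compared with the array labelled naive CD4 T cells, which are 2 of the 4 arrays of the series. The nTh1 cells were CD4+CD62L+CXCR3+ thymocytes of CIITAtg mice, and the array labelled naive is described by the submitters as splenic CD4+CD62Lhi T cells of wild-type mice, a label that its own values go against (below). Of the other arrays, whose values are given beside them, TT naive held the CD4+CD62L+CXCR3- thymocytes of CIITAtg mice. The cTh1 array held splenic naive cells of wild-type mice cultured for 5 days with beads against CD3 and CD28, with IL-12 at 2 ng/ml, with IL-2 at 50 U/ml, and with IL-4 blocked by an antibody. All mice were C57BL/6 and 8 weeks old, and 300 ng of total RNA went into each labelling. By the labels, tissue (thymus or spleen), genotype and the CXCR3 gate differ together between the nTh1 array and the array labelled naive, so their parts cannot be told apart. The labels give neither the promoter of the CIITA transgene nor the number of animals behind an array. Each group had 1 array, so all differences below are sizes without a replicate check, and no p-value was computed.

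Levels are log2 RMA values, and a difference is the nTh1 value minus the value of the array labelled naive. A gene was represented by 1 probe set with a single gene symbol, which gave 22180 genes. Of these, 12754 reached the median of all values, 6.61, on at least 1 of both arrays (the level filter). A gene was counted as higher or lower in nTh1 cells if it passed this filter and differed by at least 2-fold, which is a log2 difference of 1. Different probe sets of 1 gene gave differences with an SD of 0.38 on the log2 scale (474 genes above the filter). This is a spread between probe sets on the same arrays and holds no variation between arrays or animals, which could not be measured.

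CIITA is the transactivator of MHC class II genes. Mouse thymocytes that are selected by MHC class II on other thymocytes can acquire PLZF, the factor encoded by Zbtb16 that also gives NKT cells their innate-like effector programme. Th1 cells depend on T-bet (Tbx21), often with Eomes, and carry the chemokine receptor CXCR3. A resting naive CD4 T cell is known instead for low CXCR3, T-bet and PLZF, little cell division, and high Ccr7 and Klf2.

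The array labelled naive went against its label in several of these genes. Cxcr3 read 9.91 in nTh1 cells, 7.76 in TT naive cells, 10.53 in cTh1 cells and 9.80 on the array labelled naive, so that the gene that defined the nTh1 gate differed by 0.11 between both arrays compared. Zbtb16 read 9.88 in nTh1 cells, 9.36 in TT naive cells, 7.31 in cTh1 cells and 12.23 on the array labelled naive, the highest of the 4. Tbx21 stood at 7.92 in nTh1 cells, 7.11 in TT naive cells, 11.25 in cTh1 cells and 9.81 on the array labelled naive. Both Zbtb16 (difference of -2.35) and Tbx21 (-1.89) were thus lower in nTh1 cells than on the array labelled naive. H2-Aa, a chain of the MHC class II molecule I-A that resting mouse T cells do not normally make, read 12.66 in nTh1 cells and 12.66 on the array labelled naive, against 10.73 in cTh1 cells of wild-type origin. The array labelled naive is therefore named by its label only. Whether samples were exchanged before deposit was not tested, and each difference below is a difference from this array, not from resting naive T cells. Counts with TT naive as another baseline are given for the lists.

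The T cell identity of both arrays was alike in the measured genes. Cd4 read 12.42 in nTh1 cells and 12.33 on the array labelled naive, and Cd3e read 12.90 and 12.88 in the same order. Of the 13 measured genes of the T cell receptor complex and its proximal signalling, 0 were higher and 0 lower, with a median difference of 0.01, and the counts against TT naive were 0 and 0 as well. Over all genes above the filter, 1.93% were higher and 4.43% lower, so a count of 0 among 13 says little by itself. Dntt encodes terminal transferase, which adds bases at receptor gene joints in immature thymocytes. It read 9.47 in nTh1 cells, 7.46 in TT naive cells, 8.58 in cTh1 cells and 6.87 on the array labelled naive (difference of 2.60). The water channel gene Aqp11 read 10.51 in nTh1 cells, 7.75 in TT naive cells, 7.63 in cTh1 cells and 8.82 on the array labelled naive (1.69). In both genes the nTh1 array was the highest of the 4.

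**Figure D1:**
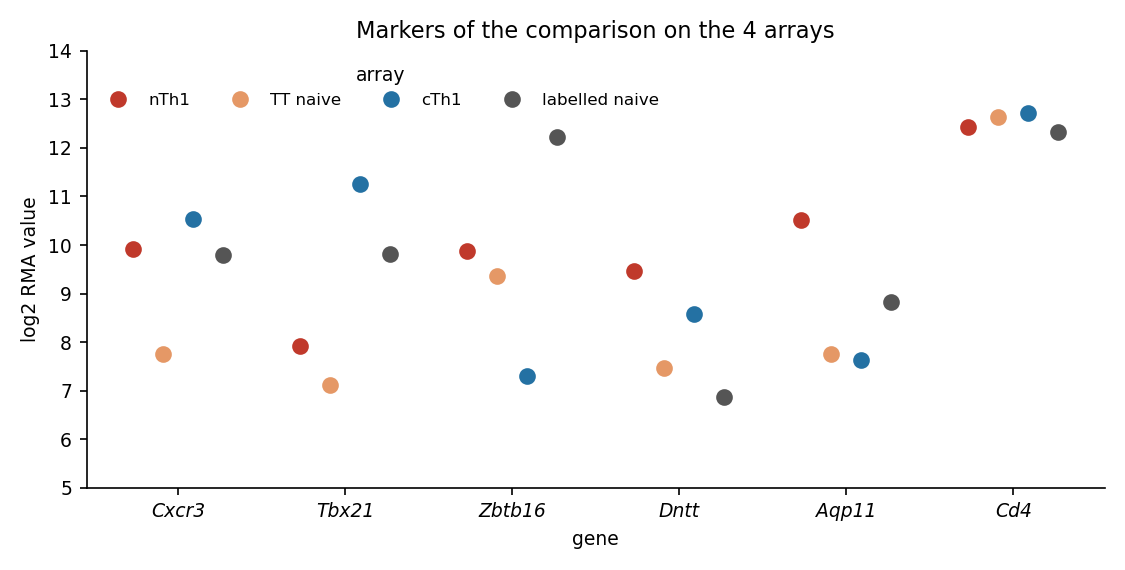
Log2 RMA values (y axis) of the 5 marker genes Cxcr3, Tbx21, Zbtb16, Dntt and Aqp11 and of Cd4 on the nTh1, TT naive and cTh1 arrays and on the array labelled naive, 1 point per array and no error bars because each group had 1 array. Cxcr3 and Cd4 lie at nearly the same level on the nTh1 array and the array labelled naive, Zbtb16 and Tbx21 lie lower in nTh1 cells, and Dntt and Aqp11 lie higher in nTh1 cells.

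Transcripts of the Y chromosome also split the arrays. Eif2s3y read 5.16 in nTh1 cells, 8.55 in TT naive cells, 4.97 in cTh1 cells and 8.61 on the array labelled naive, and Kdm5d and Uty had the same order of low and high arrays. All 3 differed by -2.80 to -3.45 between nTh1 cells and the array labelled naive, and passed the filter only through the latter. Xist, the X-inactivation transcript, was high on all arrays, at 13.25 in nTh1 cells and 12.59 on the array labelled naive. The Y-linked transcripts thus moved with the comparison, and the part of the animals' sex in the other differences was not tested.

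In all, 246 genes were higher in nTh1 cells than on the array labelled naive (1.93% of the 12754 genes above the filter) and 565 were lower (4.43%). The median difference was -0.04 over all 22180 genes and -0.10 over those above the filter. The split between higher and lower genes moved with the scaling: it was 333 higher and 439 lower after a further quantile normalization, and 311 higher and 455 lower after the level trend was removed by loess. Predicted, RIKEN, small RNA, receptor and segment genes gave 92 of the higher and 39 of the lower genes, and all other genes gave 154 higher and 526 lower. Against TT naive, nTh1 cells had 175 genes higher (1.41% of 12435) and 136 lower (1.09%), and TT naive itself had 100 genes higher (0.795% of 12582) and 326 lower (2.59%) than the array labelled naive. These 3 comparisons share arrays, so their counts are not independent of each other.

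**Figure D2:**
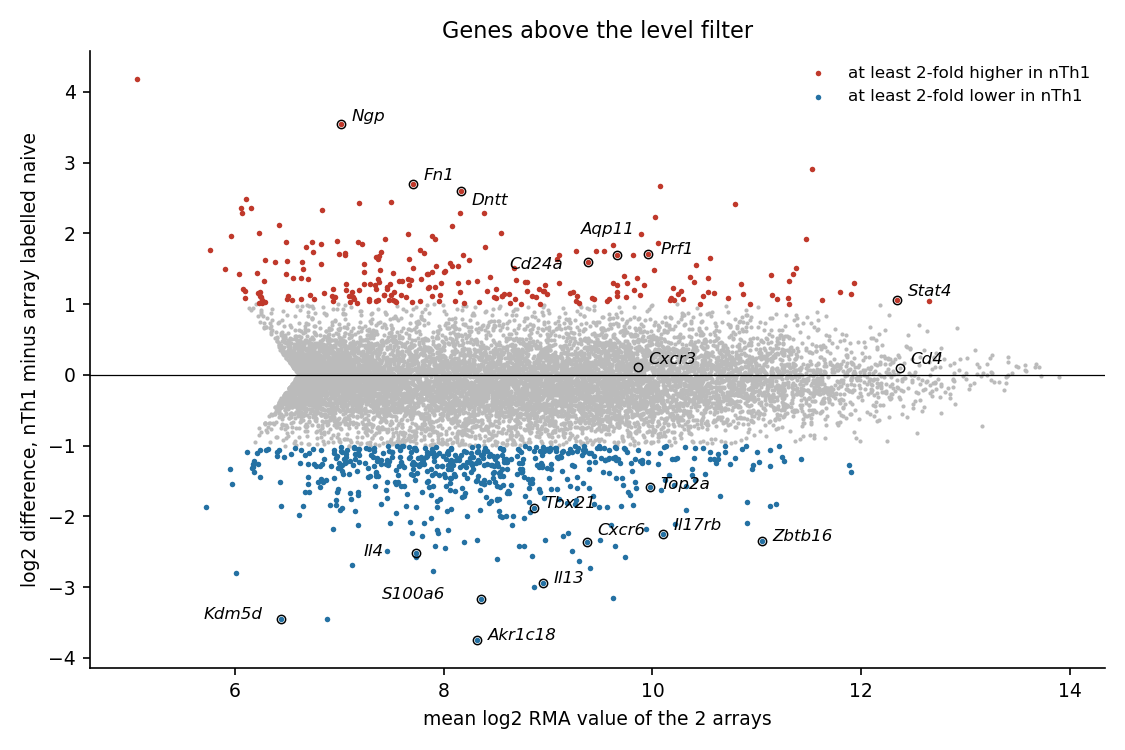
Difference between nTh1 cells and the array labelled naive (y axis, log2) against the mean log2 RMA value of both arrays (x axis) for the 12754 genes above the level filter, 1 point per gene. Red points are the 246 genes at least 2-fold higher in nTh1 cells, blue points the 565 at least 2-fold lower, and the named genes are circled; Ngp, Fn1 and Dntt lie at the top, and Akr1c18, Kdm5d, S100a6 and Il13 at the bottom.

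Genes of cell division were lower in nTh1 cells as a group. Of 25 measured genes of mitosis and the kinetochore, the structure that ties chromosomes to the spindle, 23 were at least 2-fold lower in nTh1 cells, 0 were higher, and all 25 differences were below 0. Of the 23, 1 passed the filter only through the array labelled naive. The median difference of all 25 was -1.20, beside -0.04 over all genes. Top2a, the topoisomerase that untangles chromosomes, read 9.19 in nTh1 cells, 9.74 in TT naive cells, 11.01 in cTh1 cells and 10.77 on the array labelled naive (difference of -1.59). Cdk1, the kinase that drives entry into mitosis, read 8.98 in nTh1 cells, 9.22 in TT naive cells, 10.82 in cTh1 cells and 10.44 on the array labelled naive (-1.46). Both thymic arrays were low and the cultured Th1 array and the array labelled naive were high in these genes. The spindle protein gene Tpx2 differed by -1.65, the kinetochore gene Nuf2 by -1.58, the cyclin gene Ccnb2 by -1.58, the kinetochore motor gene Cenpe by -1.53 and the polo kinase gene Plk1 by -1.42. Mki67, the proliferation marker, read 10.03 in nTh1 cells and 11.22 on the array labelled naive (-1.19). Only Ccna2, at -0.96, and Cenpa, at -0.57, stayed within 2-fold. Against TT naive, 0 of 24 members above the filter passed 2-fold in either direction, with a median of -0.16, while 18 of 25 were lower in TT naive cells than on the array labelled naive. In bulk RNA, fewer cells of a kind and less RNA per cell cannot be told apart, here and in all lists below.

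Promoters of some of these genes are shown as background, and their letters do not depend on the values of these arrays. The choice of genes does, since they were taken from the mitosis genes with the lowest differences. Cenpe, also among these, is not printed, and its window held a CCAAT match and no CHR match. The mitosis list behind the motif shares was written with earlier results of these data known. Many mitotic genes are known to carry CCAAT boxes, bound by NF-Y, and a CHR element, bound by the DREAM and MuvB complexes. The RefSeq promoters (GRCm38.p6) run for 300 bases, 250 before and 50 after the start of the gene. Each is printed along the strand of the gene, with capitals for CCAAT or its complement ATTGG and for the CHR letters TTTGAA or TTCGAA or their complement TTCAAA, searched on both strands. TTCGAA reads the same on both strands, and no CCAAT match shares a letter with a CHR match in the windows shown. Top2a (chr11:99024140-99024439, minus strand), Ccnb2 (chr9:70421505-70421804, minus strand) and Cdk1 (chr10:69352863-69353162, minus strand) hold both motifs, and Nuf2 (chr1:169531415-169531714, minus strand) is set beside them because neither occurs in its window.
Top2a: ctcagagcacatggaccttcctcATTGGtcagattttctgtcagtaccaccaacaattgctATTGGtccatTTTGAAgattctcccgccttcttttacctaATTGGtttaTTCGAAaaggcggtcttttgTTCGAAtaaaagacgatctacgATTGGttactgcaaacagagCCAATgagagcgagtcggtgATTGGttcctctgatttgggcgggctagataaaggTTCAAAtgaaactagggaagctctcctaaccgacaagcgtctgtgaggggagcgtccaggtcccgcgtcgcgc
Ccnb2: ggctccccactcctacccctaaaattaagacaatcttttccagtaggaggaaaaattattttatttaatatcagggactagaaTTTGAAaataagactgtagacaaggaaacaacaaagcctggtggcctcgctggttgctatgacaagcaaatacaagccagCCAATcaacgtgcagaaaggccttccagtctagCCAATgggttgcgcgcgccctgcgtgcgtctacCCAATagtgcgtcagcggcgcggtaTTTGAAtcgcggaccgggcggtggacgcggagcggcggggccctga
Cdk1: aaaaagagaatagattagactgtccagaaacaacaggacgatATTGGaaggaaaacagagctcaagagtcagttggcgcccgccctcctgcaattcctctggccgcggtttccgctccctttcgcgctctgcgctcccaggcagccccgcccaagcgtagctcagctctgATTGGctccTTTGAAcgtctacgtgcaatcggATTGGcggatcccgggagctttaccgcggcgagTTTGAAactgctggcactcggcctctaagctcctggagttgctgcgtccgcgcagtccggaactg
Nuf2: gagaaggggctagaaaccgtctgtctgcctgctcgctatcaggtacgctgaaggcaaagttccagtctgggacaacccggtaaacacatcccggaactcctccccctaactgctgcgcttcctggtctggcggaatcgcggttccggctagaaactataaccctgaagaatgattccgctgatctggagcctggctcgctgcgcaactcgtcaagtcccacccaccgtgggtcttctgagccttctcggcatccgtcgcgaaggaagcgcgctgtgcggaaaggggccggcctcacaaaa
Of the 25 mitosis genes, 20 had a promoter in the table by symbol. Of those 20 promoters, 16 (80.0%) held a CHR match and 16 (80.0%) a CCAAT match, and 14 (70.0%) held both. Among all 32851 promoters of that length, 19.2% held a CHR match, 37.4% a CCAAT match and 7.52% both. The difference of Nuf2, -1.58, lay beside those of Top2a and Ccnb2 although its window held neither motif. A match is a run of letters and not a measured site, and no match says only that these letters are not in this window.

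DNA replication genes lay lower in nTh1 cells as well, by less. Of 25 measured members, 8 were at least 2-fold lower and 0 higher, and all 25 differences were below 0, with a median of -0.94. Of the 8, 1 passed the filter only through the array labelled naive. Cdc6, which loads the replicative helicase at origins, read 8.02 in nTh1 cells, 8.44 in TT naive cells, 8.90 in cTh1 cells and 9.62 on the array labelled naive (-1.60). The ribonucleotide reductase subunit gene Rrm2 differed by -1.55, although its other probe set gave -0.47, and the primase gene Prim1 differed by -1.45. Pcna, the sliding clamp, was at 12.12 in nTh1 cells and 12.18 on the array labelled naive. Against TT naive 0 of 25 passed 2-fold either way. Among the 23 replication promoters in the table, from 21 genes, 4 (17.4%) held a CHR match and 15 (65.2%) a CCAAT match.

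**Figure D3:**
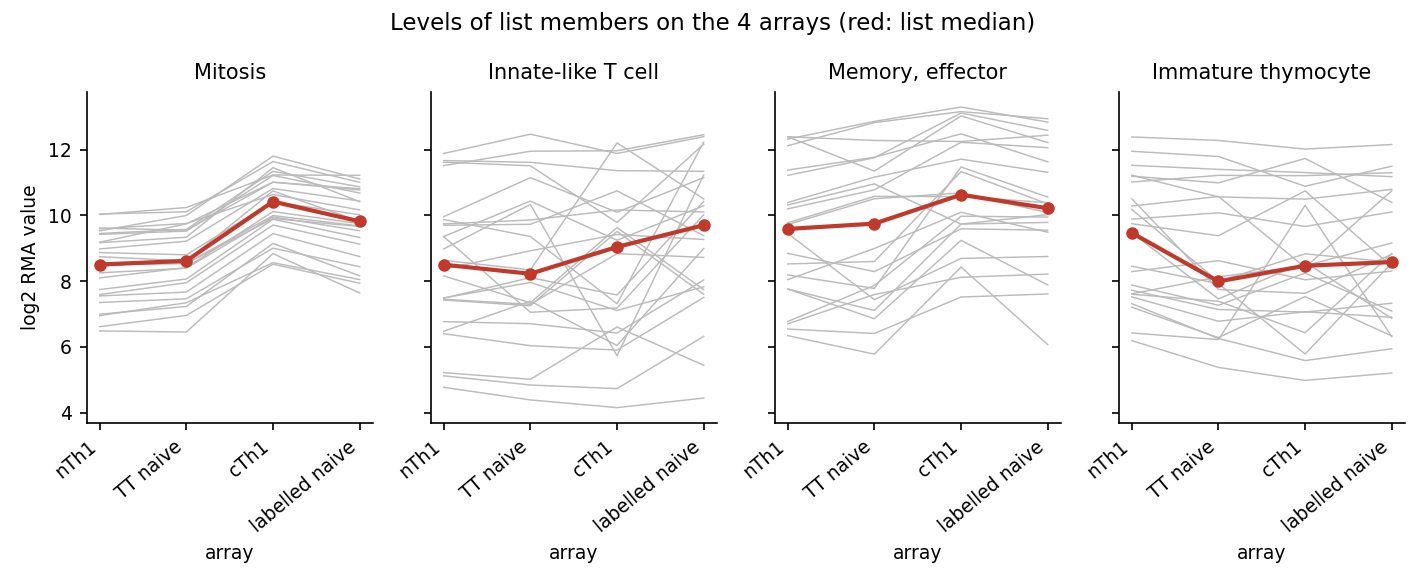
Log2 RMA values (y axis) on the nTh1, TT naive and cTh1 arrays and the array labelled naive (x axis) for the members of 4 gene lists, 1 panel a list, with a grey line per gene and the list median in red; lines only join values of 1 gene or list. The mitosis median is 8.51 in nTh1 cells and 8.62 in TT naive cells, against 10.42 in cTh1 cells and 9.82 on the array labelled naive, and the innate-like median is highest on the array labelled naive, at 9.70.

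Genes of innate-like T cells and of Th2 cells were lower in nTh1 cells than on the array labelled naive. Of 24 measured innate-like genes, 21 passed the filter, of which 9 were lower and 0 higher, with a median difference of -0.92 over all 24. Il13 and Il4, the type 2 cytokines that NKT and other innate-like T cells keep ready, showed the largest of these differences. Il13 read 7.48 in nTh1 cells, 8.11 in TT naive cells, 7.58 in cTh1 cells and 10.42 on the array labelled naive (-2.94). Il4 read 6.48 in nTh1 cells, 7.39 in TT naive cells, 6.04 in cTh1 cells and 8.99 on the array labelled naive (-2.52). For both cytokines the array labelled naive stood above the other 3 arrays. Il17rb, a receptor chain for IL-25, read 8.98 in nTh1 cells, 10.33 in TT naive cells, 5.73 in cTh1 cells and 11.23 on the array labelled naive (-2.25). Plac8 differed by -1.87, Rora by -1.27, the integrin chain gene Itgae by -1.26, the folate receptor family gene Izumo1r by -1.19 and the receptor gene Cd160 by -1.10. Xcl1, a chemokine of NKT and NK cells, read 9.36 in nTh1 cells, 7.05 in TT naive cells, 7.18 in cTh1 cells and 10.02 on the array labelled naive, and so stayed within 2-fold of the array labelled naive (-0.66).

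Of 11 measured Th2 genes, 8 passed the filter, of which 4 were lower and 0 higher (median over the 11, -0.68). Besides the cytokines these were Ccr4, a chemokine receptor of Th2 and regulatory cells, at 9.37 in nTh1 cells and 11.28 on the array labelled naive (-1.91), and Maf, an activator of Il4 (-1.25, with -1.10 from a second probe set). Gata3, the Th2 master factor that all CD4 T cells also need, differed by -0.36, at 9.74 in nTh1 cells and 10.11 on the array labelled naive. Of the lower genes, 2 of the 9 innate-like and 1 of the 4 Th2 genes passed the filter only through the array labelled naive. With TT naive as baseline, 3 of 20 innate-like genes were lower and 1 higher, and of 8 Th2 genes 0 were lower and 1 was higher.

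A part of the genes that mark antigen-experienced T cells was lower too. Of 22 measured members, 21 passed the filter, 9 were lower and 0 higher, with a median difference of -0.76. S100a6, a calcium-binding protein gene of memory cells, read 6.77 in nTh1 cells, 7.87 in TT naive cells, 9.98 in cTh1 cells and 9.95 on the array labelled naive (-3.17). The nTh1 array was the lowest and the cultured Th1 array and the array labelled naive lay together. S100a11 differed by -1.86, the annexin gene Anxa2 by -1.83, the actin-capping gene Capg by -1.51, Ahnak by -1.44, the galectin gene Lgals1 by -1.37 and S100a4 by -1.07. S100a4 passed the filter only through the array labelled naive. Cd44, the surface protein most used to tell memory from naive mouse T cells, ran the other way within 2-fold. It read 9.45 in nTh1 cells, 7.44 in TT naive cells, 8.69 in cTh1 cells and 8.75 on the array labelled naive (0.70). Against TT naive, 1 of 20 members was lower and 2 were higher.

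The Th1 factors were split. Of 11 measured, 1 was higher (Stat4) and 2 were lower (Tbx21 and Bhlhe40), with a median difference of 0.05. Stat4, which carries the IL-12 signal, read 12.88 in nTh1 cells, 11.36 in TT naive cells, 12.79 in cTh1 cells and 11.81 on the array labelled naive (1.06). Eomes, the T-box factor named in the title of the series, read 10.68 in nTh1 cells, 8.84 in TT naive cells, 7.94 in cTh1 cells and 10.03 on the array labelled naive (0.65). Stat4 was thus nearly level between nTh1 and cTh1 cells. Eomes was highest in nTh1 cells but differed from the array labelled naive by less than 2-fold. Bhlhe40, a factor that sustains interferon-gamma output, read 8.34 in nTh1 cells, 8.42 in TT naive cells, 11.56 in cTh1 cells and 10.17 on the array labelled naive (-1.82). Runx3, a partner of T-bet, differed by 0.84. Against TT naive, 2 of 11 factors were higher in nTh1 cells, Eomes (1.84) and Stat4 (1.52), and 0 were lower, and Tbx21 differed by 0.81, so the direction of Tbx21 depended on the baseline.

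Receptors of Th1 cells were within 2-fold or lower in nTh1 cells. Of 12 measured, 11 passed the filter, 4 were lower and 0 higher, with a median of -0.04. Of the 11, 5 differences lay above 0 and 6 below. The largest positive one was that of Ifngr1, just under 2-fold, at 12.67 in nTh1 cells and 11.69 on the array labelled naive (0.98). Cxcr6, a chemokine receptor of tissue-homing Th1 and NKT cells, read 8.19 in nTh1 cells, 7.78 in TT naive cells, 11.47 in cTh1 cells and 10.56 on the array labelled naive (-2.37). Ccr2 differed by -2.03, the IL-18 receptor gene Il18r1 by -1.82 and the shared IL-12 and IL-23 receptor chain gene Il12rb1 by -1.62. Il12rb2, the chain that makes the IL-12 receptor signal through Stat4, read 8.93 in nTh1 cells, 6.69 in TT naive cells, 12.10 in cTh1 cells and 8.83 on the array labelled naive. Its difference of 0.10 was below the probe set SD. Against TT naive the direction of this list was the other one, with 5 of 11 receptors higher and 0 lower. Over all genes above the filter in that comparison, 1.41% were higher and 1.09% lower. The 5 include Cxcr3, which the CXCR3 gate set apart between these arrays, so its direction was fixed by the sort. They also include Il18rap, which lay at 6.14 in TT naive cells and passed the filter only through the nTh1 array.

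Of 14 measured products of Th1 cells, 12 passed the filter, 1 was higher and 4 were lower (median -0.30). Ifng, the defining cytokine, read 7.34 in nTh1 cells, 5.88 in TT naive cells, 11.19 in cTh1 cells and 8.80 on the array labelled naive (-1.46). The others that were lower were Ly6c2 (-1.82, one of a near-identical gene family and so uncertain), Tnf (-1.36) and the chemokine gene Ccl5 (-1.03). Ccl3, another chemokine gene, was higher, at 8.00 in nTh1 cells, 6.05 in TT naive cells, 8.13 in cTh1 cells and 6.86 on the array labelled naive (1.14). Against TT naive, 5 of 12 products were higher and 1 was lower, beside 1.41% higher and 1.09% lower over all genes. Of the 5, Ifng and Ccl3 lay below the filter in TT naive cells and passed only through the nTh1 array.

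Among 16 measured cytotoxic genes, 15 passed the filter, 1 was higher and 2 were lower (median -0.24). Prf1, the pore-forming protein of killer cells, read 10.81 in nTh1 cells, 8.79 in TT naive cells, 9.87 in cTh1 cells and 9.10 on the array labelled naive (1.71), the highest in nTh1 cells. Gzmb, the granzyme delivered through such pores, read 6.02 in nTh1 cells, 5.59 in TT naive cells, 12.50 in cTh1 cells and 7.61 on the array labelled naive (-1.58). Gzmb passed the filter only through the array labelled naive. Slamf7 differed by -1.25, Fasl by -0.33 and Gzma by -0.25. Nkg7, a granule membrane protein gene, was at 11.92 in nTh1 cells and 11.73 on the array labelled naive, against 9.36 in TT naive cells. Against TT naive, 5 of 14 cytotoxic genes were higher and 0 lower, beside 1.41% higher and 1.09% lower over all genes. Of these, Gzma and Ctla2a lay below the filter in TT naive cells and passed only through the nTh1 array. Nkg7 and Fasl are also among the Th1 products counted above.

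Regulatory, follicular helper and inhibitory genes were lower in nTh1 cells than on the array labelled naive in 9 of 19, 4 of 12 and 4 of 10 members above the filter. Over all genes above the filter, 4.43% were lower. The lists overlap, so these counts are not separate results. Pdcd1 and Cd200 are lower members of both the follicular helper and the inhibitory list. Izumo1r, Itgae and Cd160 were also counted among the innate-like genes. Of the 4 lower follicular helper genes 1, and of the 4 lower inhibitory genes 1, passed the filter only through the array labelled naive. Foxp3, the regulatory T cell factor, read 7.29 in nTh1 cells, 9.87 in TT naive cells, 9.21 in cTh1 cells and 8.82 on the array labelled naive (-1.53), the lowest in nTh1 cells. The co-receptor gene Nrp1 read 7.20 in nTh1 cells and 9.81 on the array labelled naive (-2.61). The ectoenzyme gene Nt5e (-2.10), the costimulatory receptor gene Tnfrsf9 (-1.87), Ikzf2 (-1.63) and Gpr83 (-1.40) were also lower. Il2ra, the high-affinity IL-2 receptor chain, was the 1 regulatory gene that was higher, at 10.08 in nTh1 cells, 9.66 in TT naive cells, 12.52 in cTh1 cells and 9.04 on the array labelled naive (1.04).

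Pdcd1, the inhibitory receptor PD-1, read 8.43 in nTh1 cells, 9.59 in TT naive cells, 8.19 in cTh1 cells and 10.85 on the array labelled naive (-2.42). Il21, the cytokine of follicular helper cells, read 6.44 in nTh1 cells, 8.99 in TT naive cells, 7.13 in cTh1 cells and 8.53 on the array labelled naive (-2.09). Cd200 differed by -1.89 and Lag3 by -1.10. Bcl6, the follicular helper factor, differed by 0.35, at 9.15 in nTh1 cells and 8.81 on the array labelled naive. Median differences were -0.84 over 20 regulatory, -0.53 over 13 follicular helper and -0.56 over 11 inhibitory genes measured. Against TT naive, 5 of 19 regulatory, 3 of 12 follicular helper and 3 of 9 inhibitory genes were lower, beside 1.09% over all genes. Pdcd1 and Cd200 again count in both of the last lists, and Il21 passed the filter only through the TT naive array.

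NK cell receptor genes of the Klr family were sparse. Of 23 measured, 9 passed the filter, 5 were lower and 0 higher. Klrk1, which encodes NKG2D, read 6.24 in nTh1 cells and 8.00 on the array labelled naive (-1.76), and Klra9 read 7.66 in nTh1 cells and 9.41 on the array labelled naive (-1.75). Klra genes are near-identical copies, so the second of these is uncertain. Of the 5, 2 passed the filter only through the array labelled naive, and against TT naive 1 of 6 Klr genes was higher and 0 were lower. The higher gene, Klrb1f, lay at 6.54 in TT naive cells and passed the filter only through the nTh1 array. Ncr1, a defining NK cell marker, was below the filter on all 4 arrays, at 5.37 to 5.75.

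Several genes of immature thymocytes were higher in nTh1 cells. Of 23 measured, 21 passed the filter, 5 were higher and 2 lower, with a median difference of 0.43. Dntt and Aqp11, described above, were 2 of the 5. Cd24a, the heat-stable antigen that falls as thymocytes mature, read 10.18 in nTh1 cells, 7.99 in TT naive cells, 8.83 in cTh1 cells and 8.58 on the array labelled naive (1.60, with 1.20 from a second probe set). Arpp21 read 7.32 in nTh1 cells and 5.94 on the array labelled naive (1.37), and Cd8b1, a chain of the CD8 co-receptor, read 9.75 in nTh1 cells and 8.45 on the array labelled naive. Cd8a, its partner chain, lay below the filter on both arrays, at 6.42 in nTh1 cells and 6.31 on the array labelled naive. The thymic homing receptor gene Ccr9 (-1.24) and Chst2 (-1.55) were lower. Over all genes above the filter, 1.93% were higher and 4.43% lower. Against TT naive, Dntt, Aqp11, Cd24a and Arpp21 were higher (4 of 21) and 0 members were lower, beside 1.41% and 1.09% over all genes. Both counts use the same nTh1 array, so neither is a check of the other. Dntt and Aqp11 are also marker genes given for this comparison. Arpp21 passed the filter only through the nTh1 array with either baseline.

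The E proteins, which drive thymocyte development, and their Id inhibitors showed 1 member past 2-fold. Id3 read 8.59 in nTh1 cells, 10.37 in TT naive cells, 8.37 in cTh1 cells and 10.20 on the array labelled naive (-1.60). Id2, which mature effector cells use, differed by -0.93, and the E protein genes Tcf12 and Tcf3 differed by 0.43 and 0.22. Against TT naive, 1 of 7 members was lower, Id3 (-1.77), and 0 were higher.

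Genes of naive cell quiescence and egress mostly stayed within 2-fold, as did most genes above the filter, of which 1.93% were higher and 4.43% lower. Staying within 2-fold is therefore no trait of this list. Of 20 measured, 19 passed the filter, 1 was higher and 2 were lower, with a median difference of 0.32. Bach2, a repressor that holds T cells in a resting state, read 11.44 in nTh1 cells, 11.06 in TT naive cells, 10.71 in cTh1 cells and 10.29 on the array labelled naive (1.15). Txnip (0.85), the egress factor gene Klf2 (0.84) and the lymph node homing receptor gene Ccr7 (0.63) stayed within 2-fold, and Ccr7 was high on both arrays, at 12.95 in nTh1 cells and 12.32 on the array labelled naive. Igfbp4 read 9.80 in nTh1 cells and 11.51 on the array labelled naive (-1.71), and Dapl1 read 8.28 in nTh1 cells, 12.11 in TT naive cells, 11.70 in cTh1 cells and 9.90 on the array labelled naive (-1.62). Dapl1 was lowest in nTh1 cells and Igfbp4 was too, and these were the 2 of 20 members that were lower against TT naive, where 0 were higher.

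MHC class II and interferon-stimulated genes were level between both arrays. Of 11 measured MHC class II genes, 1 was lower, H2-Oa (-1.09), a chain that restrains peptide loading, and 0 were higher. H2-Ab1 read 13.39 in nTh1 cells and 13.41 on the array labelled naive, and Ciita itself read 7.72 in nTh1 cells, 7.28 in TT naive cells, 8.00 in cTh1 cells and 7.59 on the array labelled naive. All 27 measured interferon-stimulated genes stayed within 2-fold, with a median of 0.02. With 1.93% of all genes above the filter higher and 4.43% lower, this count says little by itself. Nlrc5, the transactivator of MHC class I genes, was the 1 of 13 genes of MHC class I presentation that passed 2-fold, at 11.49 in nTh1 cells and 10.21 on the array labelled naive (1.28). Against TT naive, 0 of the 11 MHC class II, 27 interferon-stimulated and 13 MHC class I presentation genes passed 2-fold.

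**Figure D4:**
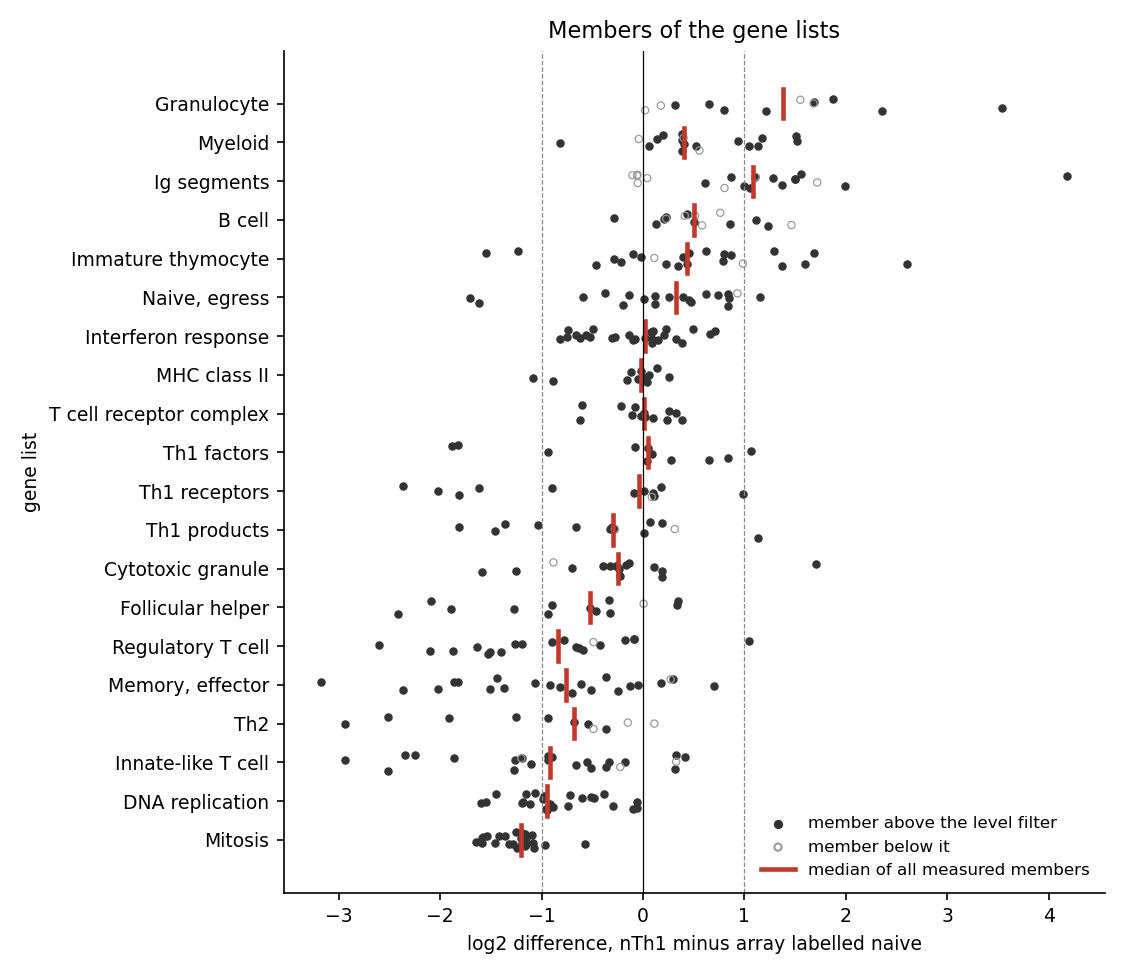
Difference between nTh1 cells and the array labelled naive (x axis, log2) for the members of the gene lists named on the y axis, 1 point per gene (filled above the level filter, open below it), with the median of all measured members as a red bar and dashed lines at 2-fold. The mitosis and replication points all lie below 0 and the granulocyte median is 1.38, where the 5 called members pass the filter only through the nTh1 array, while the T cell receptor complex and interferon-stimulated genes lie around 0.

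Genes of other cell types were among the genes higher in nTh1 cells. Of 12 measured granulocyte genes, 8 passed the filter and 5 were higher (median over the 12, 1.38). All 5 lay below the filter on the array labelled naive and passed only through the nTh1 array, so that they could not have been counted as lower, and the one-sided count is set by the filter. Their linear values summed to 1802.5 in nTh1 cells, 670.5 in TT naive cells, 2264.2 in cTh1 cells and 676.9 on the array labelled naive. Most of the cTh1 sum came from Cxcr2, at 10.58 in cTh1 cells and 7.31 in nTh1 cells. Ngp, a neutrophil granule protein gene, read 8.79 in nTh1 cells, 5.29 in TT naive cells, 5.66 in cTh1 cells and 5.25 on the array labelled naive (3.54). This was the largest positive difference once predicted, RIKEN, small RNA, receptor and immunoglobulin segment genes were passed over. Retnlg (2.35), Ltf (1.88), Lcn2 (1.69) and S100a9 (1.21) were also higher, while S100a8 was below the filter on all 4 arrays, at 4.10 to 5.78.

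Of 18 measured macrophage genes, 15 passed the filter, 5 were higher (1 of them only through the nTh1 array) and 0 lower (median 0.40), with linear sums of 5057.2 in nTh1 cells, 2113.1 in TT naive cells, 3202.0 in cTh1 cells and 3450.8 on the array labelled naive. Lyz2, the lysozyme gene of macrophages and granulocytes, read 9.44 in nTh1 cells, 6.05 in TT naive cells, 7.17 in cTh1 cells and 7.92 on the array labelled naive (1.52). C1qb, a complement gene of tissue macrophages, read 8.98 in nTh1 cells and 8.59 on the array labelled naive, against 6.64 in TT naive cells, so it was high on both arrays compared.

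B cell genes gave 2 higher of 9 above the filter, 1 of the 2 only through the nTh1 array. Their linear values summed to 2103.6 in nTh1 cells, 1419.5 in TT naive cells, 7507.6 in cTh1 cells and 1486.3 on the array labelled naive. Cd79b differed by 1.23 and Cd79a by 1.11, and Ms4a1, the gene of CD20, was below the filter on both arrays. Of 20 measured immunoglobulin genes, 12 passed the filter and 9 were higher, 6 of them only through the nTh1 array. These belong to a multigene family and are uncertain, and the 7 probe sets of Ighm differed among themselves. Against TT naive, 4 of 8 granulocyte, 9 of 15 macrophage and 2 of 9 B cell genes were higher, beside 1.41% over all genes. All 4 granulocyte genes lay below the filter in TT naive cells and passed only through the nTh1 array. The same holds for Lyz2, Csf1r, Adgre1, C1qc, Mpeg1 and Cybb among the macrophage genes and for Cd79a. Such genes could not have been counted as lower. Of 10 thymic stroma genes above the filter, 0 passed 2-fold, near the 1.93% higher and 4.43% lower over all genes. The part of such cells in the other genes that were higher in nTh1 cells was not tested.

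Among single genes, the enzyme genes Akr1c18 and Adh1 were at the far low end. Akr1c18, which inactivates progesterone, read 6.45 in nTh1 cells, 9.79 in TT naive cells, 5.79 in cTh1 cells and 10.19 on the array labelled naive (-3.75). Adh1, an alcohol dehydrogenase, read 8.04 in nTh1 cells, 9.78 in TT naive cells, 8.28 in cTh1 cells and 11.20 on the array labelled naive (-3.16), while its second probe set, near 4.5 on all arrays, gave 0.18. The extracellular ATP receptor gene P2rx7 read 7.98 in nTh1 cells, 9.89 in TT naive cells, 10.11 in cTh1 cells and 10.61 on the array labelled naive (-2.64). Csf1, the macrophage growth factor, read 7.57 in nTh1 cells, 8.17 in TT naive cells, 10.36 in cTh1 cells and 10.12 on the array labelled naive (-2.56). The 20 lowest also held Penk, the enkephalin precursor (-2.49), the neurotrophin receptor gene Ntrk3 (-2.49), the adhesion gene Chl1 (-2.43) and Crmp1 (-2.42). The adenylate cyclase-associated protein gene Cap2 differed by -2.72.

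At the high end, the fibronectin gene Fn1 read 9.06 in nTh1 cells, 5.96 in TT naive cells, 6.25 in cTh1 cells and 6.36 on the array labelled naive (2.70). Ctse, the protease cathepsin E, read 12.43 in nTh1 cells, 12.69 in TT naive cells, 9.80 in cTh1 cells and 10.52 on the array labelled naive (1.92), and so was high on both thymic arrays. The transporter gene Slc16a5 had the same pattern, at 11.14 in nTh1 cells, 10.64 in TT naive cells, 9.33 in cTh1 cells and 8.91 on the array labelled naive (2.23, with 2.53 from a second probe set). Fads2, a fatty acid desaturase, was at 8.88 in nTh1 cells, 6.09 in TT naive cells, 11.41 in cTh1 cells and 6.95 on the array labelled naive (1.93). Sez6l2 (1.81) rests on 1 of its 3 probe sets, since the others gave 0.24 and 0.36. The value of TT naive lay between those of both arrays compared for 16 of the 20 highest and 18 of the 20 lowest named genes, and was nearer to nTh1 in 12 of those 16 and 8 of those 18.

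Probe sets without a gene symbol moved as a body. Of 8215 above the filter, 2461 (30.0%) exceeded the array labelled naive by 2-fold or more on the nTh1 array and 168 (2.05%) were lower, with a median difference of 0.46. Their median level over all 16010 such probe sets was 6.58 in nTh1 cells, 6.48 in TT naive cells, 6.10 in cTh1 cells and 6.19 on the array labelled naive. Of 483 measured genes of microRNAs, 153 passed the filter, of which 43 were higher and 2 lower, with a median of 0.45 over those 153. Both thymic arrays were high in the unnamed probe sets and the cTh1 array and the array labelled naive were low. RMA scales all probe sets together, so the named genes, with a median of -0.10, are read beside this shift, whose part in their differences was not tested.

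**Figure D5:**
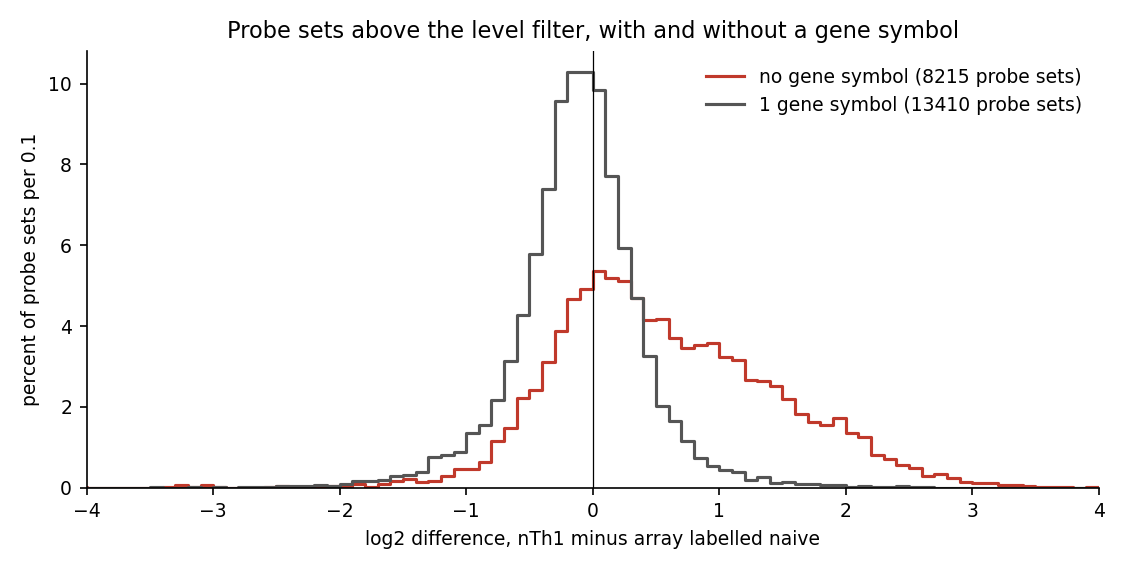
Distribution of the difference between nTh1 cells and the array labelled naive (x axis, log2) for probe sets above the level filter, with 1 gene symbol and with none (y axis, share of probe sets). The distribution of the probe sets without a symbol is shifted to higher values in nTh1 cells, with a median of 0.46.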

How the data were processed

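The deposited values are log2 RMA values of 4 Affymetrix arrays, 1 per group, with 41345 probe sets each and 0 missing values. Per the submitters' processing notes the authors ran RMA, with Affymetrix Expression Console 1.3.1 named as the tool. A genome build is not given. RMA subtracts background, quantile-normalizes and summarises probes, which holds the arrays' distributions alike. The number of arrays limits the precision.

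From the deposited log2 values, 23521 probe sets with exactly 1 symbol in the platform annotation were kept (1814 had several symbols and 16010 none). Of their gene IDs, 23328 were found in a RefSeq gene table. Where a gene had several probe sets, its brightest one by the mean of all 4 arrays stood for it. Differences were counted at 2-fold above a level filter, with Python 3.11.15, numpy 2.4.6, pandas 2.3.3 and statsmodels 0.14.6, and no test was run. The counting was tested on simulated data.

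Named genes are the 20 highest and 20 lowest differences (passing over predicted, RIKEN, small RNA and receptor segment genes), up to 6 members with the largest difference of each of 57 lists, members of the T cell state lists, and the marker genes. The members and lists were chosen with earlier results of these data known. Patterns for ribosomal and receptor segment lists were corrected after the values were seen. The use of TT naive as baseline was chosen after seeing the data. Samples were grouped by title.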

Additional observations from a re-analysis of the deposited data

Results flagged for a closer look

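Probe sets without a gene symbol lie outside the counts of named genes, and of the 8215 that passed the level filter 2461 read at least 2-fold higher in nTh1 cells than on the array labelled naive. Against TT naive the same class gave 542 higher and 117 lower of 8292. Probe sets with several gene symbols, also outside those counts, gave 55 higher and 46 lower of 1034 above the filter.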

How the results depend on the processing

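With 1 array per group no difference has a replicate check, and the listed direction of small differences is open to the arrays' own error. Counts were repeated without the level filter, with a 3-fold threshold, with a filter at the 75th percentile, after loess, centring or a further quantile normalization, with a gene's probe sets averaged, and without some gene classes. Genes higher in nTh1 cells numbered 246, and became 142 under the filter at the 75th percentile, 66 at 3-fold and 154 without predicted, RIKEN, small RNA and segment genes. The 565 lower genes became 138 at 3-fold and 136 with TT naive as baseline. Centring gave 277 higher and 514 lower. Lower replication genes numbered 5 under a further quantile normalization, and 1 granulocyte gene was higher under the 75th percentile filter, the only member above it. With TT naive as baseline, an alternative chosen after seeing the data, the lower members numbered 0 for Th1 receptors, 1 for Th1 products, 3 for innate-like, 0 for Th2, 1 for antigen-experienced, 0 for mitosis and 0 for replication genes. The cause was not tested. Of 1094 repeated values of 190 genes (the extremes and the list members past 2-fold), 0 changed direction among those at least 2-fold and 48 fell under 2-fold. These repeats left out the TT naive baseline. They only rescaled, refiltered or averaged probe sets of the same arrays, so they could hardly reverse a 2-fold difference and are no check of direction. No paired analysis was possible because each group had 1 array.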

Other observations

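Among metabolic genes, those of amino acid supply and one-carbon metabolism had a median difference of -0.64 over 17 measured, with 3 of 16 above the filter lower in nTh1 cells than on the array labelled naive and 0 higher. Psat1, an enzyme of serine synthesis, read 9.05 in nTh1 cells and 10.26 on the array labelled naive (-1.21), Mthfd2 differed by -1.01, and Asns, which makes asparagine, read 7.11 in nTh1 cells and 8.12 on the array labelled naive. Oxidative phosphorylation genes had a median of -0.42 over 24, with 2 lower, Ndufa4 (-1.19) and Cox5a (-1.10), and 23 of 24 differences below 0. Against TT naive, 0 members of either list passed 2-fold. Of 68 ribosomal protein genes above the filter, 0 passed 2-fold, beside 1.93% higher and 4.43% lower over all genes above the filter.

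Of 31 genes of recent T cell receptor signalling, 6 were lower and 1 was higher (median -0.24). Against TT naive, 4 of 31 were higher and 3 lower. Egr3, an early factor of T cell receptor signalling, read 8.28 in nTh1 cells, 9.45 in TT naive cells, 8.38 in cTh1 cells and 9.74 on the array labelled naive (-1.46). Gadd45b differed by -1.53, and Jun, a subunit of AP-1, was higher, at 11.82 in nTh1 cells and 10.81 on the array labelled naive. Bcl2l11, the death gene of the BCL2 family that acts in negative selection, read 10.82 in nTh1 cells, 9.38 in TT naive cells, 10.94 in cTh1 cells and 9.67 on the array labelled naive (1.14).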
